A study of Rattus norvegicus with 12 samples.

Results

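The oxygen-dependent histone and DNA demethylases examined here are 10 genes, Kdm2a, Kdm2b, Kdm3a, Kdm4b, Kdm4c, Kdm5b, Kdm6b, Tet1, Tet2 and Tet3, of the 30562 Ensembl genes in the count table. They were chosen by symbol, as enzymes that use molecular oxygen, and each symbol had 1 row. Bulk RNA-seq was performed on oligodendrocyte precursor cells (OPCs) isolated from the cortices of neonatal wild-type Sprague-Dawley rats and plated in Neurobasal medium with FGF-2, PDGF-AA and B27. Cells held at an FiO2 of 5% (mild-hypo-OPCs, 6 libraries) were compared with cells held in room air (standard OPCs, 6 libraries), both without any genetic change. The labels give 6 hours at 5% oxygen and the study's methods give 6 days, so the duration is uncertain. The libraries are counted as replicates by their labels. The study's legend gives fewer biological replicates per group than libraries were deposited, so some may share a culture, and p-values measure only the spread between them, which may in part be technical. The mild-hypo-OPC libraries held totals of 4111669 to 9022324 counts and the standard OPC libraries 1356079 to 2797513, so depth differed together with oxygen and their parts cannot be told apart. All 10 genes passed the filter of more than 10 CPM (counts scaled by library total) in at least 1 library, as did 8938 genes in all. The counts behind single values ran from 12 to 193 in standard OPCs and from 50 to 886 in mild-hypo-OPCs.

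JmjC demethylases (the Kdm genes here) remove methyl groups from lysines of histone tails, and TET enzymes oxidize 5-methylcytosine in DNA as a first step toward its removal. Both families are dioxygenases that need iron, 2-oxoglutarate and molecular oxygen, and several of the Kdm genes, Kdm3a, Kdm4b and Kdm4c among them, are known to be induced through HIF in other cells kept at low oxygen. In the oligodendrocyte lineage, histone and DNA methylation are reset as precursors leave the cell cycle and begin to express myelin genes. The libraries measure transcripts and not enzyme activity, and in bulk RNA fewer cells of a type and less RNA per cell cannot be told apart.

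None of the 10 demethylase genes was called between mild-hypo-OPCs and standard OPCs. By edgeR's quasi-likelihood test with adjustment over all genes, 0 of 10 were called higher and 0 of 10 lower, whereas 24.0% of all genes tested were called, 7.00% higher and 17.0% lower. At an unadjusted p under 0.05, 1 of the 10 passed (Tet3), against 36.3% of all genes, and limma-voom and DESeq2 also gave 0 called genes and 1 at that unadjusted level. The log2 fold changes ran from -0.33 for Tet3 to 0.14 for Kdm2a, with 5 above zero and 5 below. Their median was 0.0013, against -0.0031 for all genes tested. In 0 of the 10 did the libraries of the groups separate completely, while 2.94% of all genes had every mild-hypo-OPC library above every standard OPC library and 5.40% had every one below.

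The intervals show what these libraries could have missed. The upper ends of the 95% intervals lay at or below a 1.31-fold increase (Kdm2a), and the lower ends reached a 0.668-fold level (Tet3) and a 0.685-fold level (Kdm4c). These intervals hold for each gene on its own and with the scaling factors used.

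**Figure D1:**
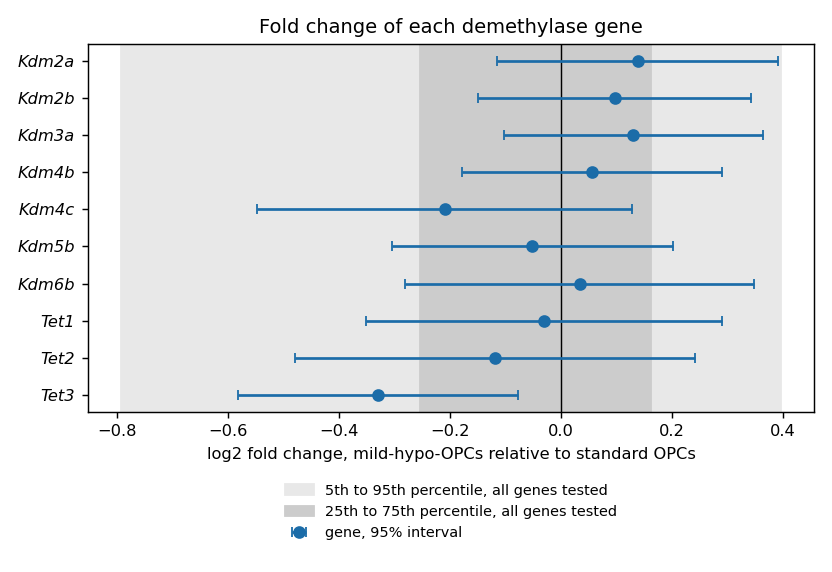
Log2 fold change of each demethylase gene in mild-hypo-OPCs relative to standard OPCs (points) with its 95% interval (bars), over grey bands for the 5th to 95th and the 25th to 75th percentile of all 8938 genes tested. The intervals of 9 genes span zero, and that of Tet3 runs from -0.58 to -0.078 although its adjusted p is 0.0524.

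Kdm3a, Kdm4b and Kdm4c, which act on methylated lysine 9 of histone H3, were considered first because all are known HIF targets. Kdm3a removes mono- and dimethylation there. Its level in mild-hypo-OPCs was 28.2 CPM in the lowest library, 31.7 at the median and 37.0 in the highest, and in standard OPCs 24.4, 29.7 and 35.0. The ranges overlapped over most of their length, and the log2 fold change was 0.13 (standard error, SE, 0.11; edgeR adjusted p = 0.427), with a 95% interval from -0.10 to 0.36. Kdm4b removes trimethylation of the same lysine. It had 36.1, 40.6 and 43.8 CPM (lowest, median and highest library) in mild-hypo-OPCs and 24.7, 40.6 and 45.0 CPM in standard OPCs, with equal medians and a log2 fold change of 0.056 (SE 0.11; edgeR adjusted p = 0.756). Its low value of 24.7 CPM came from standard OPC replicate 5, and without that library the log2 fold change was -0.040. Kdm4c, a close relative of Kdm4b, had 12, 13.7 and 17.2 CPM in mild-hypo-OPCs and 10.7, 15.8 and 21.7 CPM in standard OPCs. The standard OPC libraries enclosed all of the mild-hypo-OPC values, and the log2 fold change was -0.21 (SE 0.16; edgeR adjusted p = 0.371).

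The sequence upstream of these genes was read to show whether the core letters of the hypoxia response element, ACGTG or GCGTG on either strand, were present. RefSeq promoter sequences of the GRCr8 build were matched by symbol for 10 of 10 genes, and the 250 bases before the first listed start were searched. At least 1 match was found in 5 of the 10 (Kdm2b, Kdm4b, Kdm4c, Kdm5b and Tet2), against 37.9% of 27457 genes with a promoter listed and 59% of the 7076 of them that were tested. ACGTG was present in 4 of the 10, in 16.9% of all and in 23.5% of the tested genes' promoters. GCGTG was present in 4 of the 10, in 27.2% of all and in 47.7% of the tested genes' promoters, so that the members' 40% lay above the former share and below the latter. The matches with the 6-base palindrome CACGTG, which reads ACGTG on both strands and is also the E-box of basic helix-loop-helix factors, were in Kdm4b and Kdm4c. They are shown with 9 bases on each side, with the palindrome in capitals, 232 bases before the start of Kdm4b (chr9:1245662-1245685, + strand) and 209 and 177 bases before that of Kdm4c (chr5:93146819-93146842 and chr5:93146851-93146874, + strand).
Kdm4b, 232 bases before: gtcaccaggCACGTGagtgggtgc
Kdm4c, 209 bases before: ttagaaatcCACGTGacccagaga
Kdm4c, 177 bases before: ccccgcggtCACGTGgcggatcgt
Of the matches without the palindrome, those of ACGTG are shown for Kdm5b, which also held GCGTG 14 bases before its start (chr13:48554163-48554185, + strand) and Tet2 (chr2:224746287-224746309, - strand), with the 5 matching bases in capitals.
Kdm5b, 225 bases before: aaatgtatgACGTGattgatcga
Tet2, 114 bases before: catgccagtCACGTccgccccct
For Kdm3a, Tet1 and Tet3 more than 1 start is listed, and over all 16 windows of the 10 genes 8 held a match, against 36.7% of 33469 windows of all genes. The share over all windows of tested genes was not computed. Over the first windows of tested genes it was 59%, above that of the 10 genes. A match is a description of the letters in these windows and not a bound site. Kdm3a held none in its first window but a match in 1 of its 2 listed windows, and Tet1 in 2 of 3. Kdm3a, Kdm4b and Kdm4c, each with a match in at least 1 window, were all not called.

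**Figure D2:**
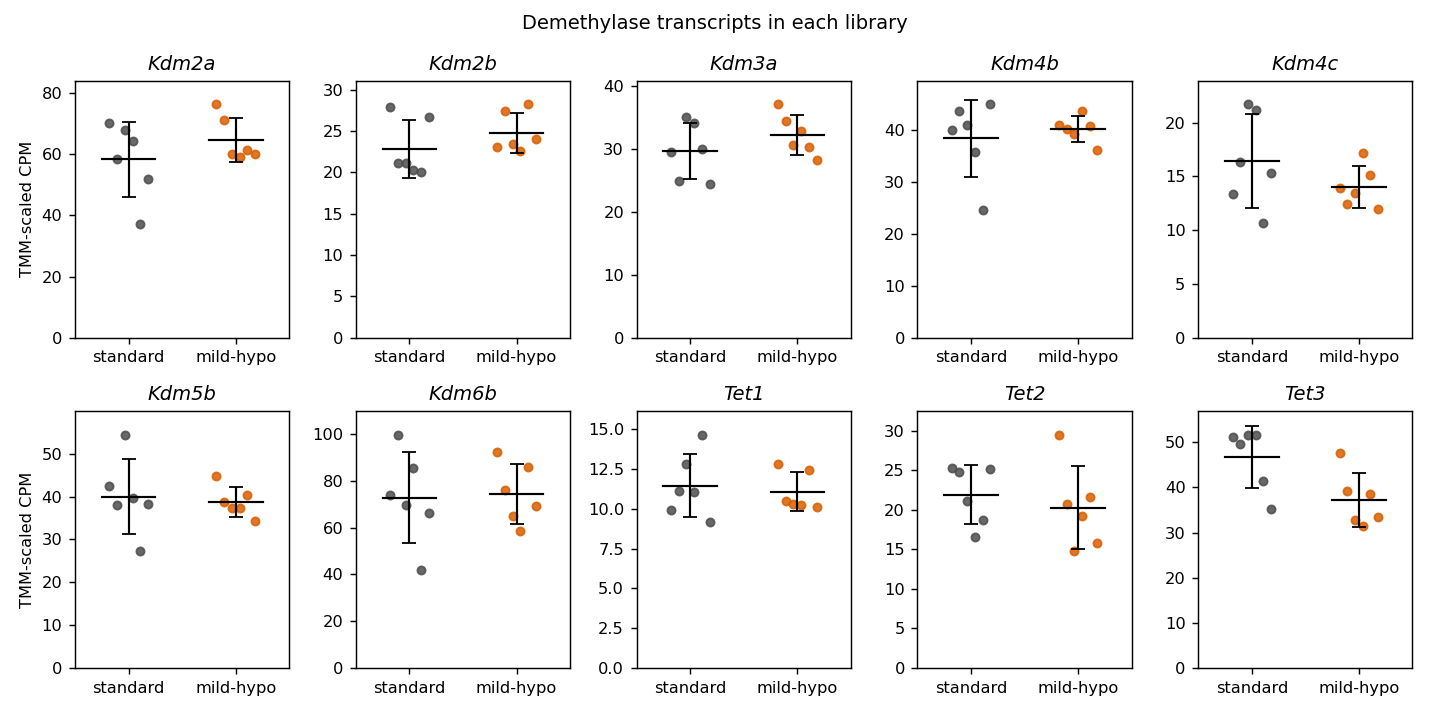
TMM-scaled CPM (y axis, starting at zero, scale set per gene) of the 10 demethylase genes in each library (points) of standard OPCs (grey) and mild-hypo-OPCs (orange), with the mean and SD (n = 6 per group). The groups overlap in every panel, and in the Tet3 panel 5 of the 6 mild-hypo-OPC points lie below the standard OPC mean.

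The other Kdm genes act on lysines 4, 27 and 36 of histone H3. Kdm2a, which removes methyl groups from lysine 36 and binds unmethylated CpG DNA, had 59.0, 60.8 and 76.4 CPM (lowest, median and highest library) in mild-hypo-OPCs and 37.3, 61.5 and 70.4 CPM in standard OPCs. In all 6 mild-hypo-OPC libraries Kdm2a exceeded the standard OPC mean of 58.4 CPM, but that mean was drawn down by replicate 5 at 37.3 CPM, and the log2 fold change of 0.14 (SE 0.12) was not called (adjusted p = 0.438 from edgeR). Kdm2b, which brings a Polycomb complex to CpG islands, had 24.8 ± 2.40 CPM in mild-hypo-OPCs and 22.9 ± 3.51 CPM in standard OPCs (SD, n = 6 each), a log2 fold change of 0.097. Kdm5b removes methyl groups from lysine 4, the mark of active promoters. It had 38.8 ± 3.56 CPM in mild-hypo-OPCs and 40.0 ± 8.77 CPM in standard OPCs (SD, n = 6 each), and its log2 fold change was -0.052 (95% interval from -0.31 to 0.20). The standard OPC values ran from 27.3 CPM in replicate 5 to 54.5 CPM in replicate 3 and enclosed those of mild-hypo-OPCs. Kdm6b removes the repressive trimethylation of lysine 27 and is known as an inducible gene. It varied widely in both groups, with mild-hypo-OPC libraries at 58.4 to 92.4 CPM and standard OPC libraries at 42 to 99.8 CPM, and with medians of 72.7 and 71.7 CPM. The difference of 0.034 on the log2 scale was far smaller than this spread (SE 0.15; edgeR adjusted p = 0.899).

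Among the TET enzymes, Tet3 had the lowest log2 fold change of the 10 genes. Its values in mild-hypo-OPCs were 47.7, 39.3, 32.8, 31.6, 38.5 and 33.6 CPM in replicates 1 to 6, and in standard OPCs 51.2, 49.6, 51.7, 51.5, 41.3 and 35.1 CPM. Replicates 1 to 4 of standard OPCs lay above all mild-hypo-OPC libraries, replicates 5 and 6 of standard OPCs lay within their range, and mild-hypo-OPC replicate 1, the library with the highest total count, was the only one of its group above the standard OPC mean of 46.8 CPM. The log2 fold change was -0.33 (SE 0.12; unadjusted p = 0.0128 and edgeR adjusted p = 0.0524), just outside the threshold of 0.05. It was past the threshold in 6 of 26 alternatives, with adjusted p-values from 0.00504 with the trend on gene span removed to 0.472 with library size only. The calls included those without mild-hypo-OPC replicate 1 (adjusted p = 0.0184 from edgeR), standard OPC replicate 5 (0.0498) and standard OPC replicate 6 (0.0260). These libraries held the highest mild-hypo-OPC value and the lowest standard OPC values, so leaving one out widens the difference by itself. The other leave-one-out fits did not call Tet3, with adjusted p-values from 0.0853 to 0.133 (edgeR).

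Tet1 rested on the fewest counts of the 10, with no more than 26 counts in any standard OPC library. At 11.1 ± 1.23 CPM in mild-hypo-OPCs and 11.5 ± 2.0 CPM in standard OPCs (SD, n = 6 each), its log2 fold change was -0.031, with a 95% interval from -0.35 to 0.29. Tet2 had 14.8, 20.0 and 29.5 CPM (lowest, median and highest library) in mild-hypo-OPCs and 16.6, 23.0 and 25.2 CPM in standard OPCs. The standard OPC libraries fell inside the range of mild-hypo-OPCs, whose highest value was again in replicate 1, and the log2 fold change was -0.12 (SE 0.17; edgeR adjusted p = 0.657). Whether Tet3 differed from Tet1 or Tet2 in its change was not tested.

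To ask whether an eraser moved against a writer of the same mark, the log2 ratio of their counts was computed within each library, which does not depend on the scaling factors. Of the 6 pairs planned, 5 could be computed, and Kdm5b to Kmt2d was not analysed here. The ratio of Tet3 to Dnmt3a, the de novo DNA methyltransferase, was 0.18 ± 0.22 in mild-hypo-OPCs and 0.69 ± 0.26 in standard OPCs (log2 units, SD, n = 6 each). By replicate, from 1 to 6, it was 0.43, 0.16, 0.21, -0.18, 0.096 and 0.37 in mild-hypo-OPCs and 0.49, 0.60, 0.60, 0.94, 1.08 and 0.43 in standard OPCs. All 6 mild-hypo-OPC libraries lay below all 6 standard OPC libraries, although the highest of the former (0.4261) and the lowest of the latter (0.4306) nearly touched. The difference of -0.51 had p = 0.00216 in a two-sided exact permutation test, the smallest value possible for this design, and an adjusted p of 0.0108 over 5 ratios. Neither gene was called on its own, as Dnmt3a had 32.8 ± 4.46 CPM in mild-hypo-OPCs and 29.2 ± 6.32 CPM in standard OPCs (log2 fold change 0.14, adjusted p = 0.501 from edgeR). The difference was -0.30 in replicates 1 to 3 and -0.72 in replicates 4 to 6, and 3 libraries against 3 cannot give a p below 0.10. Pairs of genes were chosen with earlier results of these data known.

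The other 4 ratios did not differ beyond the spread between libraries. Tet1 relative to Dnmt1, which copies DNA methylation at replication, was -2.23 ± 0.17 in mild-hypo-OPCs and -1.93 ± 0.46 in standard OPCs (log2 units, SD, n = 6 each; exact permutation test, adjusted p = 0.346). Kdm6b relative to Ezh2, the methyltransferase of lysine 27, was 1.93 ± 0.24 and 1.77 ± 0.59 (exact permutation test, adjusted p = 0.894, n = 6 each). The standard OPC values of this ratio ran from 0.97 to 2.59 and enclosed every mild-hypo-OPC value. The differences were 0.048 for Kdm3a relative to Ehmt2, a writer of lysine 9 dimethylation, and 0.012 for Kdm4b relative to Setdb1, a writer of lysine 9 trimethylation (exact permutation test, adjusted p = 0.894 for each).

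**Figure D3:**
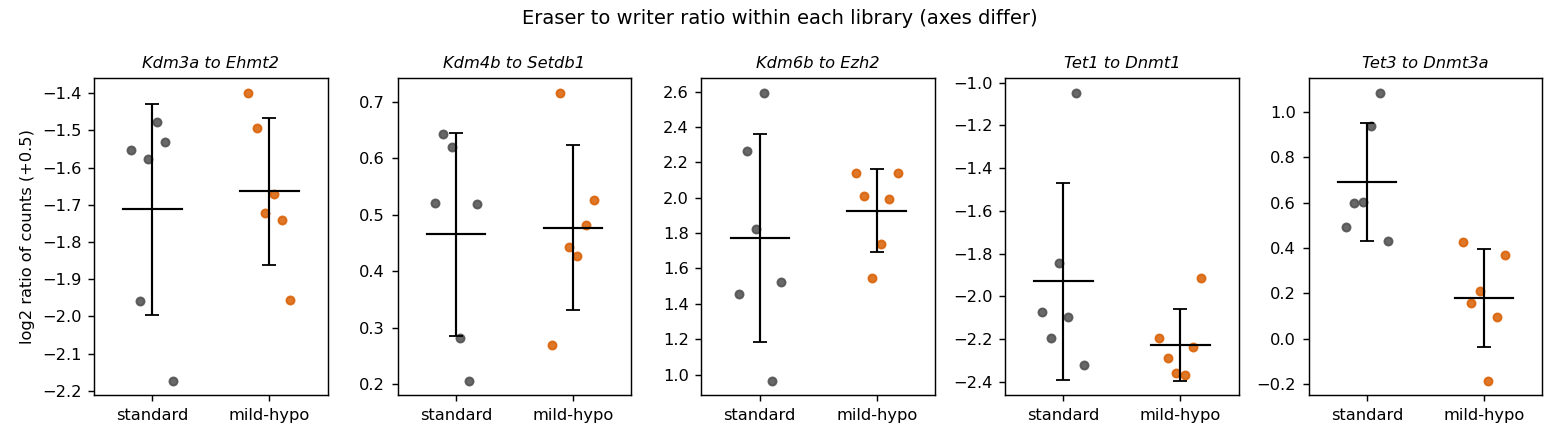
Log2 ratio of counts (with 0.5 added to each) of a demethylase gene to a methyltransferase gene in each library (points) of standard OPCs (grey) and mild-hypo-OPCs (orange), with the mean and SD (n = 6 per group); each panel has its own y axis, which does not start at zero. The Tet3 to Dnmt3a panel is the only one of the 5 without overlap of the groups.

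The 10 genes also varied between libraries of the same group. The coefficient of variation ranged from 6.24% (Kdm4b) to 25.9% (Tet2) in mild-hypo-OPCs and from 14.8% (Tet3) to 26.7% (Kdm6b) in standard OPCs, and it was larger in standard OPCs for 8 of the 10. Standard OPC replicate 5 held the lowest value of its group for 6 of 10 genes, and mild-hypo-OPC replicate 1 held the highest value of its group for 7 of 10. After the group means were subtracted, 33 of the 45 pairs of genes had a positive correlation over the 12 libraries, with a median r of 0.41 and a highest r of 0.86 for Kdm2a with Kdm5b. These correlations are descriptive, since the 12 points share libraries and scaling factors. The tested genes whose log2 CPM followed Tet3 most closely over the 12 libraries were Hipk2, Atrx, LOC102551819, Crebbp and Ylpm1, with r from 0.875 to 0.903 and, with group means subtracted, from 0.800 to 0.882. Of these, Crebbp, which encodes a histone acetyltransferase, had a log2 fold change of -0.56 (adjusted p = 0.00312 from edgeR) and Atrx, which encodes a chromatin remodeler, of -0.19 (adjusted p = 0.216 from edgeR).

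A long gene span is a feature that most of the 10 genes share, and the fold changes over all genes tested moved with span. By the GRCr8 annotation, 8 of the 10 were in class 4 when the tested genes were split by span into 4 classes of 2136, from shortest to longest, with Kdm6b at 21495 bp and Kdm3a at 44319 bp below it. In that class 8.24% of genes were called higher and 5.76% lower (median log2 fold change 0.060), whereas in the shortest span class 4.49% were called higher and 35.2% lower (median -0.22). Of the genes called lower, 751 were in the shortest class. Tet3, at 100390 bp, went against the direction of its class's median, as did Kdm4c, Kdm5b, Tet1 and Tet2 in the same class. The part of gene span in these results was not tested beyond the alternative that removes its trend, in which the median log2 fold change of the 10 genes was -0.062 and Tet3 was called lower.

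Related gene lists were read in the same way, beside the 7.00% of all genes called higher and the 17.0% called lower. Of 23 other genes encoding JmjC proteins, 16 were tested, 1 was called higher and 0 lower, with a median log2 fold change of 0.12. The called gene was Phf8, a demethylase of lysine 9, with 25.7 ± 2.54 CPM in mild-hypo-OPCs and 19.9 ± 3.84 CPM in standard OPCs (SD, n = 6 each; log2 fold change 0.37, adjusted p = 0.0384 from edgeR). Kdm5a and Kdm6a, whose enzymes are known to lose activity at low oxygen, had log2 fold changes of 0.16 and 0.12 and were not called. Of the demethylases that use FAD in place of iron, Kdm1a was called higher (0.34, adjusted p = 0.0189 from edgeR) and Kdm1b was not (0.14, adjusted p = 0.575 from edgeR).

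Among writers of histone H3 methylation, calls went both ways, with 1 to 3 genes called in each list, beside 24.0% of all genes tested. For lysine 4, 8 of 10 listed genes were tested. Kmt2a and Kmt2c, large methyltransferases of that lysine, were called lower (-0.71 and -0.62, adjusted p = 0.00726 and 0.00736 from edgeR), and Rbbp5, a shared subunit of their complexes, was called higher (0.24, adjusted p = 0.0387 from edgeR). For lysine 9, 1 of 4 tested genes was called, namely Ehmt1, which was higher with complete separation (48.9 ± 4.21 against 36.5 ± 5.17 CPM, SD, n = 6 each; 0.41, adjusted p = 0.00618 from edgeR). For lysine 27, 1 of 5 tested genes was called, the histone-binding subunit Rbbp4, which was lower (-0.34, adjusted p = 0.00892 from edgeR), and Ezh2 was not called (-0.13, adjusted p = 0.533 from edgeR). For lysine 36, 1 of 5 was called, Ash1l, which was lower (-0.43, adjusted p = 0.0417 from edgeR). In the DNA methylation list, 7 of 11 genes were tested. Uhrf1, which brings Dnmt1 to newly copied DNA, was higher (22.9 ± 2.97 against 13.7 ± 2.12 CPM, SD, n = 6 each; 0.71, adjusted p = 0.00109 from edgeR), and Mbd3, a subunit of a repressor complex, was lower (-0.29, adjusted p = 0.0139 from edgeR). Of the Polycomb partners of Kdm2b, 6 of 8 were tested, 0 were higher and 2 were lower, beside 17.0% of all genes called lower. These were Skp1 (-0.58, adjusted p = 0.000725 from edgeR) and the ubiquitin ligase Rnf2 (-0.31, adjusted p = 0.0311 from edgeR).

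**Figure D4:**
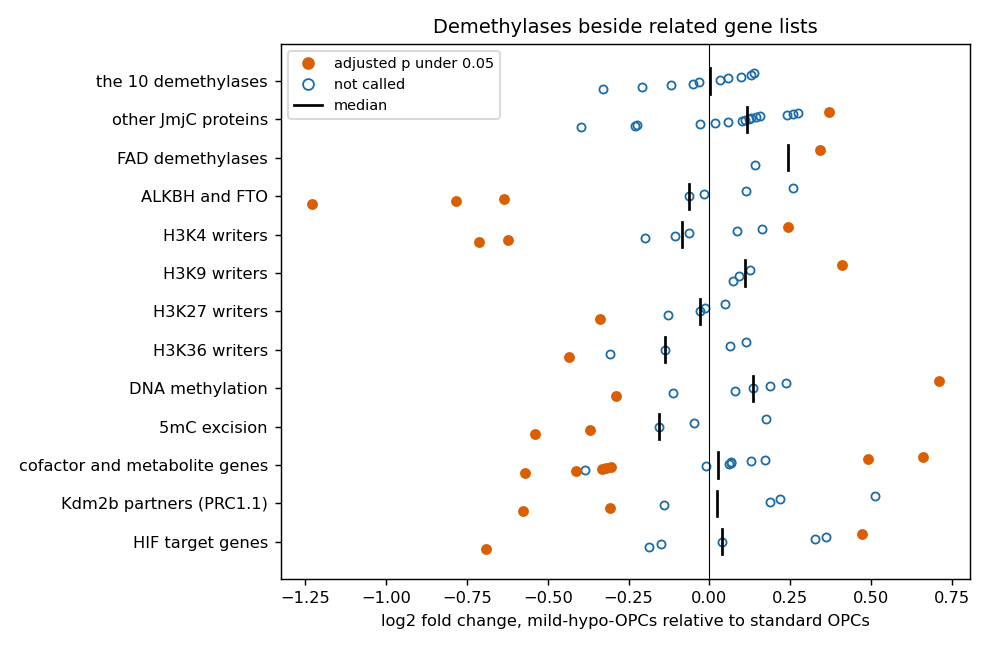
Log2 fold change in mild-hypo-OPCs relative to standard OPCs (x axis) of the tested genes of each list (rows), filled where the adjusted p from edgeR is under 0.05 and open where it is not, with the median of each list as a black bar. The row of the 10 demethylases has 0 filled points and a median near zero, while the row of ALKBH and FTO genes reaches -1.23. That lowest point, Alkbh7, had a mean of 6.24 CPM in mild-hypo-OPCs, under the filter of 10 CPM.

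A list of 12 genes known to be induced through HIF was read beside the demethylases that share this property. Of the 7 tested, P4ha1, a collagen prolyl hydroxylase, was higher (47.6 ± 0.849 against 33.9 ± 5.04 CPM, SD, n = 6 each; 0.47, adjusted p = 0.00129 from edgeR), Bnip3, a mitophagy receptor, was lower (-0.69, adjusted p = 0.000554 from edgeR), and the other 5 were not called, with a median of 0.0375 over the list. Thus 1 of 7 HIF-induced genes was called higher and 1 lower, beside 7.00% and 17.0% of all genes tested. Of the demethylases, Kdm3a, Kdm4b and Kdm4c included, 0 of 10 were called in either direction, against 24.0% of all genes.

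The direction of single demethylase genes, Tet3 included, depended on the scaling factors. Tet3 stayed the lowest of the 10 under both other scalings, library size only and upper-quartile factors. A change of factors shifts all genes nearly alike, so the order of the genes under these scalings was nearly fixed in advance. The TMM factors were 1.08 to 1.23 for mild-hypo-OPC libraries but 0.809 to 0.945 for standard OPC libraries. With library size only, the medians over all genes and over the 10 genes both rose to 0.43, and 7 of the 10 were called higher, beside 61.7% of all genes. Relative to the shifted median, Kdm3a was at 0.13 and Tet3 at -0.33, as with TMM factors. With upper-quartile scaling 0 of the 10 were called, while calls over all genes went from 626 higher and 1520 lower to 1136 higher and 1255 lower. Tet3 had the lowest log2 fold change of the 10 genes in 26 of 27 fits, the exception being the fit with log2 total count as a covariate.

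**Figure D5:**
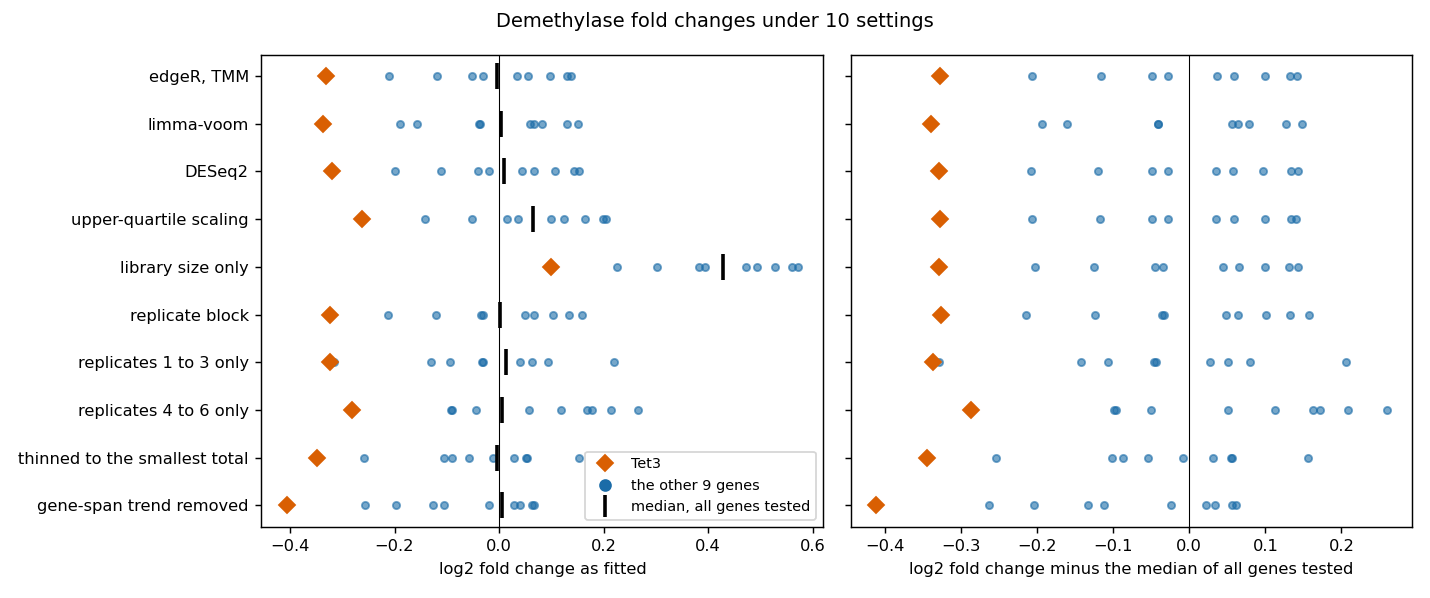
Log2 fold changes of the 10 demethylase genes (x axis) under 10 settings (rows), as fitted on the left with the median of all genes tested as a black bar, and after subtracting that median on the right. Tet3 (diamonds) is at 0.099 with library size only, where all other genes move to the right as well, and at -0.33 once the median of 0.43 is subtracted.

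The cells carried OPC transcripts, and some markers of other cells differed between the groups. All 7 OPC markers, among them Pdgfra, Sox10 and Olig2, passed the filter, with 1 called higher (Gpr17), and the oligodendrocyte genes Mag, Cnp and Cldn11 were called higher. The 7 OPC markers summed to 3730 to 4330 CPM in mild-hypo-OPCs against 3080 to 3830 CPM in standard OPCs. Summed over its list, the level of 7 microglial markers was 46.1 to 57.6 CPM in mild-hypo-OPCs and 29.4 to 43.8 CPM in standard OPCs, that of 7 astrocyte markers 627 to 751 and 577 to 644 CPM, and that of 6 neuronal markers 343 to 402 and 256 to 334 CPM. The microglial and neuronal sums did not overlap between the groups. Csf1r (0.61) and Cd68 (0.67) of 3 microglial markers tested were called higher, as was Tubb3 (0.72) of 4 neuronal markers tested. Of 6 astrocyte markers tested, Aqp4 (0.79) and Slc1a3 (0.25) were called higher and S100b was called lower (log2 fold change -0.46). Over all genes tested, 7.00% were called higher and 17.0% lower. The remaining microglial marker tested, Trem2, had a log2 fold change of -0.28 (adjusted p = 0.353 from edgeR). Of the microglial markers below the filter, Aif1 had a lower mean in mild-hypo-OPCs (1.87 against 3.13 CPM), and Cx3cr1, P2ry12 and Itgam had higher ones. Mesenchymal and endothelial markers summed to at most 2.66 CPM in any library, and the endothelial cadherin Cdh5 was at 0 in all 12. The part of these shifts in the demethylase values was not tested.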

How the data were processed

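RNA-seq was available for 12 libraries of primary rat OPCs, 6 per condition, grouped by their labels. The authors trimmed reads with Trimmomatic 0.36, used STAR 2.7.9a for alignment (mRatBN7.2) and RSEM 1.3.3 for gene quantification, from strand-specific libraries. The deposited values are unnormalized counts, in whole numbers, of Ensembl genes, and how RSEM's estimates were made whole is not given in the sources used here. No column was left unused. Pairs of libraries within a group differed by more than sampling noise (chi-square divided by its degrees of freedom, 3.22 to 19.7).

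Genes were kept if any library had over 10 CPM, as in the study's methods. Counts were scaled with TMM factors and tested with edgeR 4.0.16 (glmQLFit, glmQLFTest; R 4.3.3), on condition alone, with p-values adjusted by Benjamini-Hochberg over all genes kept and a threshold of 0.05. The study's methods name limma-voom, which was an alternative here (limma 3.58.1), as was DESeq2 1.42.0. CPM values are TMM-scaled and not corrected for transcript length, so levels were not compared between genes. Standard errors come from the quasi-likelihood F statistic, and 95% intervals from the t distribution with the fit's degrees of freedom. Depth limits precision: the intervals reflect spread among libraries and leave out the difference in depth between conditions. Log2 ratios within libraries used a prior count of 0.5 and two-sided exact permutation tests (SciPy 1.17.1). Scripts were tested on simulated data first. Promoters and gene spans were taken from RefSeq (GRCr8) by symbol, with a span for 95.59% of tested genes, and motif searches used the 250 bases before a start.

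The 10 genes, the lists and the tests were chosen with earlier results of these data known. Genes named are the 10 members, the called genes of each list (for a list with over 5, the 2 largest in each direction), the partners in ratios, the 5 genes most correlated with the member of lowest p, and markers or list genes given as examples, which were chosen after their values were seen. Alternatives were limma-voom, DESeq2, upper-quartile factors, library size only, 3 other filters, the replicate number as a block, log2 total count as a covariate, replicates 1 to 3 or 4 to 6, leaving out each library, thinning to the smallest total, removing the trend on gene span and, chosen after seeing the data, protein-coding genes only. For ratios, prior counts of 0.1 and 2 were added. The summed level of the oligodendrocyte markers is not reported here.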

Additional observations from a re-analysis of the deposited data

Results flagged for a closer look

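One value stood apart from its group by Dixon's criterion. In standard OPC replicate 5 the log2 ratio of Tet1 to Dnmt1 was -1.047, while the other 5 standard OPC libraries lay between -2.322 and -1.846. The gap to the nearest library was 0.627 of the whole range. This library had 22 counts of Tet1, and without it the difference in that ratio between the groups was -0.12, against -0.30 with it. In all, 30 groups of 6 values were examined, and chance flags about 5% of such groups.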

How the results depend on the processing

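Of 26 alternatives, 25 called 0 demethylase genes higher, and library size only called 7. Tet3 was the 1 gene called lower with the replicate block, with the covariate of depth (log2 total count), with the gene-span trend removed and in 3 fits that left out 1 library, so that the number called lower ran from 0 to 1 over those fits. The median log2 fold change of the 10 genes was 0.43 with library size only and -0.31 with the depth covariate. Over all genes, 1136 were called higher with upper-quartile scaling, 5515 higher and 405 lower with library size only, 0 higher and 43 lower with the depth covariate, 53 higher and 343 lower in replicates 1 to 3, and 397 higher after thinning. With library size only, Kdm4c (0.23), Kdm5b (0.38), Tet1 (0.39), Tet2 (0.30) and Tet3 (0.099) turned positive, with Kdm5b and Tet1 among the 7 called, and the median of all genes moved to 0.43. With the depth covariate, Kdm2a (-0.35), Kdm3a (-0.082), Kdm4b (-0.059) and Kdm6b (-0.50) turned negative and were not called. Other changes of sign were near zero, and the cause was not tested. They were Kdm5b (0.016) and Tet1 (0.036) with upper-quartile scaling, Tet1 (0.0032) with no filter, Kdm4b (-0.031), Kdm6b (-0.033) and Tet1 (0.040) in replicates 1 to 3, Kdm5b (0.12) in replicates 4 to 6, Kdm2b (-0.091) after thinning, and Kdm4b (-0.018) with the gene-span trend removed. Leaving out 1 library gave ranges of -0.040 to 0.11 for Kdm4b, -0.14 to 0.059 for Kdm5b, -0.080 to 0.15 for Kdm6b and -0.085 to 0.045 for Tet1.

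The difference in the ratio of Tet3 to Dnmt3a kept its sign in all 18 alternatives, and its call in 15, the leave-one-out fits included (-0.56 to -0.43, exact permutation test, adjusted p = 0.0216 in each). As the groups separated completely, leaving out any library had to give the smallest p possible. The leave-one-out calls were thus fixed in advance and add no support. It was -0.30 in replicates 1 to 3 and -0.72 in replicates 4 to 6 (adjusted p = 0.5 in both by exact permutation test), and -0.51 with the replicate block (0.156), and in these 3 the smallest p possible cannot pass after adjustment. The differences for Kdm3a to Ehmt2 (-0.063 in replicates 4 to 6, -0.046 after thinning, -0.044 to 0.11 without 1 library), Kdm4b to Setdb1 (-0.12 in replicates 1 to 3, -0.0043 after thinning, -0.040 to 0.054 without 1 library) and Kdm6b to Ezh2 (-0.0040 to 0.32 without 1 library) changed sign and were not called in any setting. No pairing of the libraries by replicate number was seen. The correlation of same-numbered deviations ran from -0.26 to 0.28, and 0 of 6 mild-hypo-OPC libraries matched their own number best. Whether same-numbered libraries share a culture cannot be told from these values. With the replicate block 572 genes were higher and 1471 lower, and of the 10 genes only Tet3 changed its call (adjusted p = 0.0480 from edgeR). Depth limits Tet1 most, with as few as 12 counts in a library.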

Other observations

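Other genes of nucleic acid demethylation and of the cofactors that dioxygenases need were read as further lists. Of 9 genes of the ALKBH family and Fto, which use the same chemistry on DNA or RNA bases, 7 were tested, 0 were called higher and 3 lower, beside 17.0% of all genes called lower. By gene span, Alkbh7 (2153 bp) and Alkbh6 (5451 bp) were in the shortest of 4 classes, in which 35.2% of genes were called lower. Alkbh7, a mitochondrial protein of the family, had 6.24 ± 1.55 CPM in mild-hypo-OPCs and 15 ± 7.08 CPM in standard OPCs (SD, n = 6 each; log2 fold change -1.23, adjusted p = 0.00226 from edgeR), and Alkbh3 and Alkbh6 had -0.78 and -0.64 (adjusted p = 0.0121 and 0.0491 from edgeR). Alkbh3, Alkbh6 and Alkbh7 each had a mean under 10 CPM in mild-hypo-OPCs (6.07 for Alkbh3 and 7.81 for Alkbh6). In standard OPCs their means were over it (10.7 for Alkbh3 and 12.4 for Alkbh6). They could thus pass the filter of 10 CPM through the group where they were higher. These calls therefore give no support to a shift of the list. Fto and Alkbh5, which act on N6-methyladenosine, had log2 fold changes of 0.11 and -0.062 and were not called. Among 8 genes that complete the removal of oxidized methylcytosine or assist it, 5 were tested and 2 were called, both lower, beside 17.0% of all genes and 35.2% of the shortest span class, which holds both (2185 and 2303 bp). They were Apex1 (-0.37, adjusted p = 0.0160 from edgeR) and Gadd45b (-0.54, adjusted p = 0.0275 from edgeR), while Tdg, the glycosylase that acts directly after TET enzymes, was not called (-0.047, adjusted p = 0.733 from edgeR).

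Of 16 genes that set the level of 2-oxoglutarate, its competitors or ascorbate, 14 were tested, 2 were called higher and 5 lower, beside 7.00% and 17.0% of all genes. Ogdh, which consumes 2-oxoglutarate in the citric acid cycle, was higher with complete separation (104.4 ± 8.05 against 73.5 ± 10.9 CPM, SD, n = 6 each; 0.49, adjusted p = 0.00104 from edgeR), as was D2hgdh, which removes D-2-hydroxyglutarate (0.66, adjusted p = 0.0334 from edgeR), though its libraries overlapped. D2hgdh had a mean of 9.74 CPM in mild-hypo-OPCs and 5.86 CPM in standard OPCs. It could thus pass the filter of 10 CPM through the group where it was higher, and its call gives no support to a shift of the list. Sdhd, a subunit of succinate dehydrogenase, and Idh3g, a subunit of mitochondrial isocitrate dehydrogenase, were lower by the largest amounts (-0.57 and -0.41, adjusted p = 0.00726 and 0.0180 from edgeR). By gene span, Sdhd (9552 bp), Idh3g (8910 bp) and Idh3b (5305 bp) were in the shortest of 4 classes, in which 35.2% of genes were called lower. Sdhb and Sdhc, also called lower, were longer than that class.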
